A study of Homo sapiens with 4 samples.

Results

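Wnt pathway genes, namely the secreted Wnt ligands, their cell surface receptors, secreted inhibitors, and the nuclear factors and feedback targets of the pathway, were compared between MDA-MB-231 cells given a FOXC1 plasmid and cells given the control vector. The members were a list of 48 gene symbols, and each was followed through the probe set annotated to that symbol alone, the brightest where there was more than 1. Of the 48 members 47 had such a probe set (16 ligands, 18 receptors, 4 secreted inhibitors, and 9 of 10 targets and nuclear factors), out of 18417 genes in all. TCF7 was not analysed here. DKK3 was the single member with a second probe set.

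MDA-MB-231 is an established human breast cancer cell line without estrogen receptor, progesterone receptor or HER2 amplification, and FOXC1 is a forkhead transcription factor. The cells grew in DMEM with 10% fetal bovine serum, penicillin and streptomycin, and both groups received their plasmid, FOXC1 or empty vector, with the lipid reagent Lipo2000. Total RNA from 2 vector and 2 FOXC1 samples, described as biological replicates, was hybridised to 4 Affymetrix HuGene 1.0 ST arrays, which report a linear signal per probe set. Time after transfection, and whether cells were selected or cloned, was not stated in the sources used here, and the transcript of FOXC1 was not analysed here, so that it gives no check of the labels.

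Wnt ligands are secreted proteins that bind Frizzled receptors together with the co-receptors LRP5 or LRP6. In the canonical branch this binding stops the destruction of beta-catenin, which then enters the nucleus and acts with TCF and LEF factors on target genes. Several of those targets, among them AXIN2, RNF43, ZNRF3, NKD1 and DKK1, restrain the pathway in turn, and other ligands such as WNT5A act mainly through ROR and RYK receptors without beta-catenin. In breast tissue the pathway is known for its part in mammary stem cells and in basal-like tumours.

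The median array signal lay between 489 and 512, and the correlation of log2 signals across probe sets was 0.997 within each group and 0.992 between groups. Changes are given as FOXC1 minus vector on the scale of log2(signal + 16), with the standard error from limma, and a gene was called when its limma p-value, adjusted by Benjamini-Hochberg over all 21214 named probe sets, was below 0.05. Among markers of the line, VIM and CD44 gave high signals (mean 16879 and 10832 in vector cells), while the luminal receptor genes ESR1 and PGR were dim (245 and 93.3). Luminal epithelial markers moved with the groups: 6 of 9 fell and the other 3 did not pass (31.4% of all genes passed in either direction). Their summed signal was 25331 to 25879 in vector and 21152 to 21481 in FOXC1 cells. KRT8 and KRT18 (mean 9162 and 8833 in vector cells) made up most of that sum. The largest fold among the luminal markers was the fall of FOXA1, 2.55-fold. Markers of basal-like or mesenchymal lines moved as well, with VIM, MSN, CAV1 and TGFBI lower and CD44 higher among 6 measured. TGFBI changed most, with a fall of 2.14-fold. The summed signal of the 6 was 57920 to 58262 in vector and 55071 to 55998 in FOXC1 cells. Of the markers of other cell types PECAM1 (1 of 5 endothelial genes) fell 3.15-fold, DCN (1 of 7 fibroblast genes) rose 1.55-fold and PTPRC (1 of 6 leukocyte genes) rose 1.39-fold, the latter pair from dim signals, and the 5 adipocyte genes did not pass. The part of these markers in the changes below was not tested. In bulk RNA, fewer cells that express a gene and less of its RNA per cell cannot be told apart.

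Of the 47 members 16 passed the test, 7 higher and 9 lower in FOXC1 cells. Over all genes tested 31.4% passed, 15.9% higher and 15.5% lower, so the share of members called (34.0%) was near that background. Brighter genes passed more often. Among those above the 50th percentile of mean signal, fitted alone, 2484 rose and 2336 fell of 9328 genes, and 6 rose and 7 fell of 23 members. The shares set beside 31.4% below take no account of signal. The median log2 change was 0.028 over the members and 0.033 over all genes. Changes of at least 1.5-fold were made by 7 called members, against 3.02% of all genes. These were WNT5A, FZD4 and FZD8, which rose, and WNT7B, LGR5, LRP5 and RNF43, which fell. FZD1 lay just under that limit at 1.49-fold. Both arrays of one group lay above both arrays of the other for 30 members, and 63.5% of all genes did so.

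**Figure D1:**
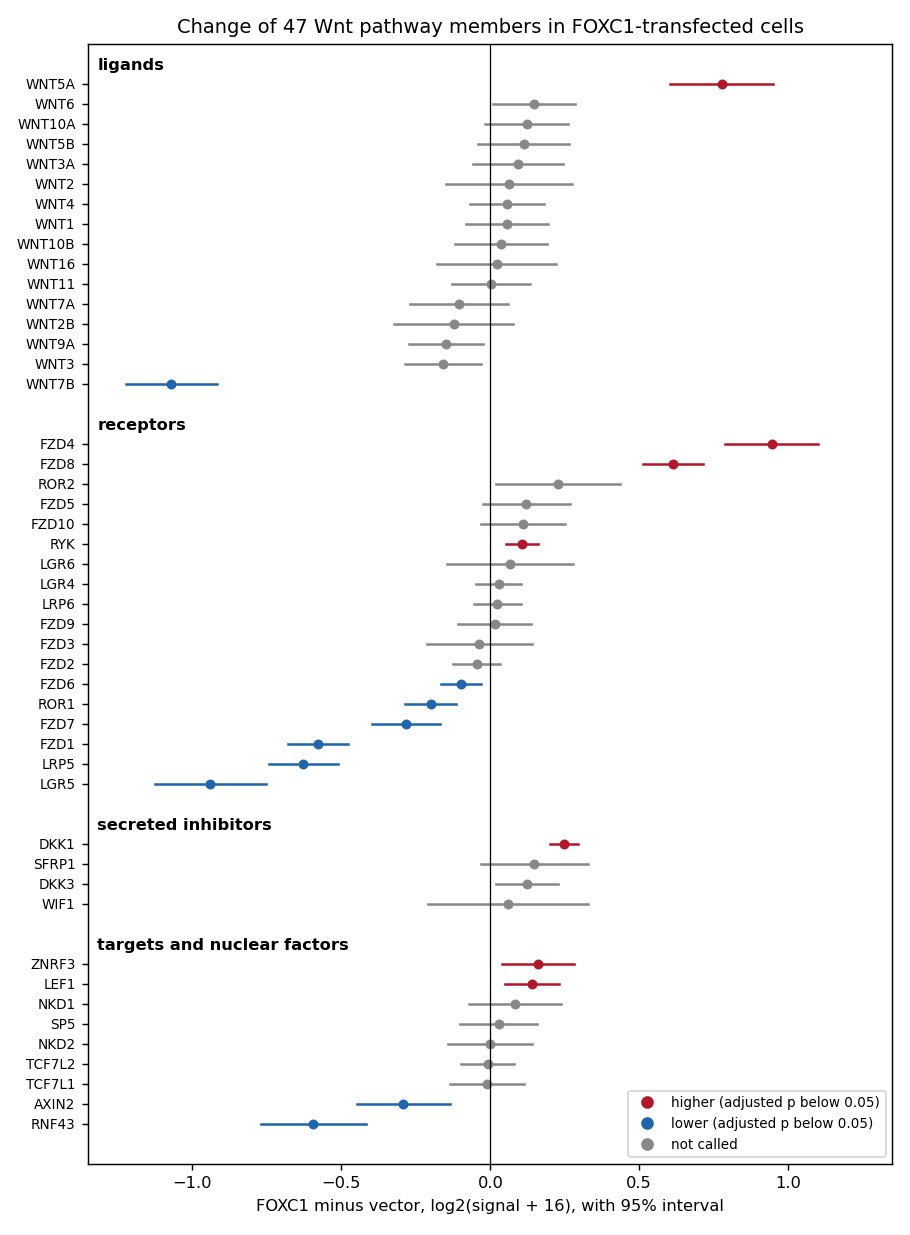
Change of each of the 47 measured members, grouped by role, as FOXC1 minus vector in log2(signal + 16), with points for the estimate and lines for the 95% interval from limma. The widest changes are those of WNT7B (-1.07), FZD4 (0.94) and LGR5 (-0.94), and most ligands sit close to 0.

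Among the ligands, a fall of WNT7B and a rise of WNT5A stood beside 14 ligands that did not pass. WNT7B, a ligand that can act through beta-catenin, had signals of 883 and 804 in vector cells and 387 and 399 in FOXC1 cells. The groups lay well apart, and WNT7B fell 2.10-fold (log2 -1.07 ± 0.073 SE, adjusted p = 2.02e-10). It was the single member with a called change of at least 2-fold. WNT5A, the ligand best known for signalling without beta-catenin, gave 289 and 304 in vector and 543 and 498 in FOXC1 cells. Both FOXC1 arrays were higher than both vector arrays, and WNT5A rose 1.71-fold (log2 0.78 ± 0.083 SE, adjusted p = 2.02e-07). WNT5B, its closest relative, had signals of 504 and 494 against 524 and 558 and did not pass (log2 0.11, 95% interval -0.04 to 0.27). With 2 of 16 called, the ligands lay below the 31.4% of all genes, and their median log2 change was 0.046.

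The brightest other ligand probe sets were those of WNT11, WNT9A, WNT4 and WNT3. WNT11, another ligand of the non-canonical branch, read 948 and 967 in vector and 904 and 1016 in FOXC1 cells, so the groups overlapped. WNT3 and WNT9A, both canonical ligands, showed lower FOXC1 arrays without passing. WNT3 went from 900 and 916 to 790 and 834 (log2 -0.16 ± 0.061 SE, adjusted p = 0.0518), and WNT9A from 946 and 938 to 827 and 869 (log2 -0.15 ± 0.059 SE, adjusted p = 0.0652). They lay close to the threshold, and WNT3 passed in 8 and WNT9A in 5 of 16 alternative settings. WNT4, a ligand of mammary side branching, had 864 and 855 in vector and 882 and 906 in FOXC1 cells (log2 0.056, adjusted p = 0.525). WNT1, WNT2, WNT2B, WNT3A, WNT6, WNT7A, WNT10A, WNT10B and WNT16 did not pass either. Over the 14 uncalled ligands the log2 change ran from -0.16 to 0.15, with 95% intervals between -0.32 and 0.29, and the signals from 187 to 1016. WNT2 and WNT2B were dim, with both group means below the 25th percentile of the tested probe sets (a signal of 277), where a change may not be visible.

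Of the 18 receptors 9 were called, 3 higher and 6 lower (background 31.4%), beside 2 of 16 ligands, a difference that was not tested. Their median log2 change was 0.019, since rises and falls were both present. Of the 10 Frizzled receptors, the seven-pass proteins that bind Wnt through a cysteine-rich domain, FZD4 and FZD8 rose, FZD1, FZD7 and FZD6 fell, and FZD2, FZD3, FZD5, FZD9 and FZD10 did not pass.

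FZD4, which besides Wnt ligands binds norrin together with LRP5, had signals of 360 and 367 in vector and 745 and 686 in FOXC1 cells. The arrays of the groups were clearly separate, and FZD4 rose 1.92-fold (log2 0.94 ± 0.075 SE, adjusted p = 2.36e-09). FZD8 rose 1.53-fold, from 1488 and 1373 to 2174 and 2214 (log2 0.61 ± 0.048 SE, adjusted p = 1.95e-09). FZD1 moved the other way. Its signals of 1863 and 1832 in vector cells became 1205 and 1260 in FOXC1 cells, a fall of 1.49-fold (log2 -0.58 ± 0.048 SE, adjusted p = 5.54e-09). FZD7, a receptor often linked to triple-negative breast tumours, fell 1.22-fold, from 1347 and 1295 to 1115 and 1052 (adjusted p = 0.000327). FZD1 and FZD7, close relatives by sequence, were thus both lower on both FOXC1 arrays, while FZD2, the third receptor of that subgroup, read 3062 and 3104 against 3060 and 2915 and did not pass (log2 -0.046, 95% interval -0.12 to 0.03). FZD6 showed the smallest called change, from 4016 and 4005 to 3750 and 3743 (log2 -0.098 ± 0.033 SE, adjusted p = 0.0267). That call was lost in 4 of 16 alternative settings, among them without vector replicate 1 and without vector replicate 2 (adjusted p from 0.0074 to 0.176 over the alternatives).

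The co-receptors differed. LRP5 had 1520 and 1407 in vector and 959 and 923 in FOXC1 cells, a fall of 1.54-fold (log2 -0.63 ± 0.056 SE, adjusted p = 1.36e-08). LRP6, which has the same task beside Frizzled, read 2744 and 2680 against 2776 and 2737, with overlapping groups (log2 0.023, 95% interval -0.06 to 0.10). The difference between the changes of LRP5 and LRP6 was not tested.

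Of the receptors for non-canonical ligands, the tyrosine kinase-like receptor ROR1 fell 1.15-fold, from 3115 and 3140 to 2832 and 2613 (adjusted p = 0.000605), and RYK rose 1.08-fold, from 7219 and 7205 to 7849 and 7680 (adjusted p = 0.00322). Both shifts were small next to those of FZD4 or LRP5. The call of ROR1 was lost without a variance trend, where its adjusted p reached the top of its range (4.34e-07 to 0.0733 over the alternatives), and that of RYK without a trend and with each array centred on its median (0.00112 to 0.221). ROR2, a receptor for WNT5A, was dim at 185 and 195 in vector and 217 and 233 in FOXC1 cells and did not pass (log2 0.23, adjusted p = 0.0934).

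LGR4, LGR5 and LGR6 bind R-spondins, secreted proteins that amplify Wnt signals, and LGR5 is itself a Wnt target and a marker of epithelial stem cells. LGR5 had signals of 427 and 420 in vector cells and 223 and 203 in FOXC1 cells, and both FOXC1 arrays lay below the 25th percentile of 277. It fell 1.92-fold (log2 -0.94 ± 0.089 SE, adjusted p = 3.82e-08). LGR4 stayed within its replicate spread, with 3110 and 3208 against 3175 and 3269 (log2 0.028, 95% interval -0.05 to 0.10), and LGR6 was dim in both groups and did not pass. Over the 9 uncalled receptors the log2 change ran from -0.046 to 0.23.

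**Figure D2:**
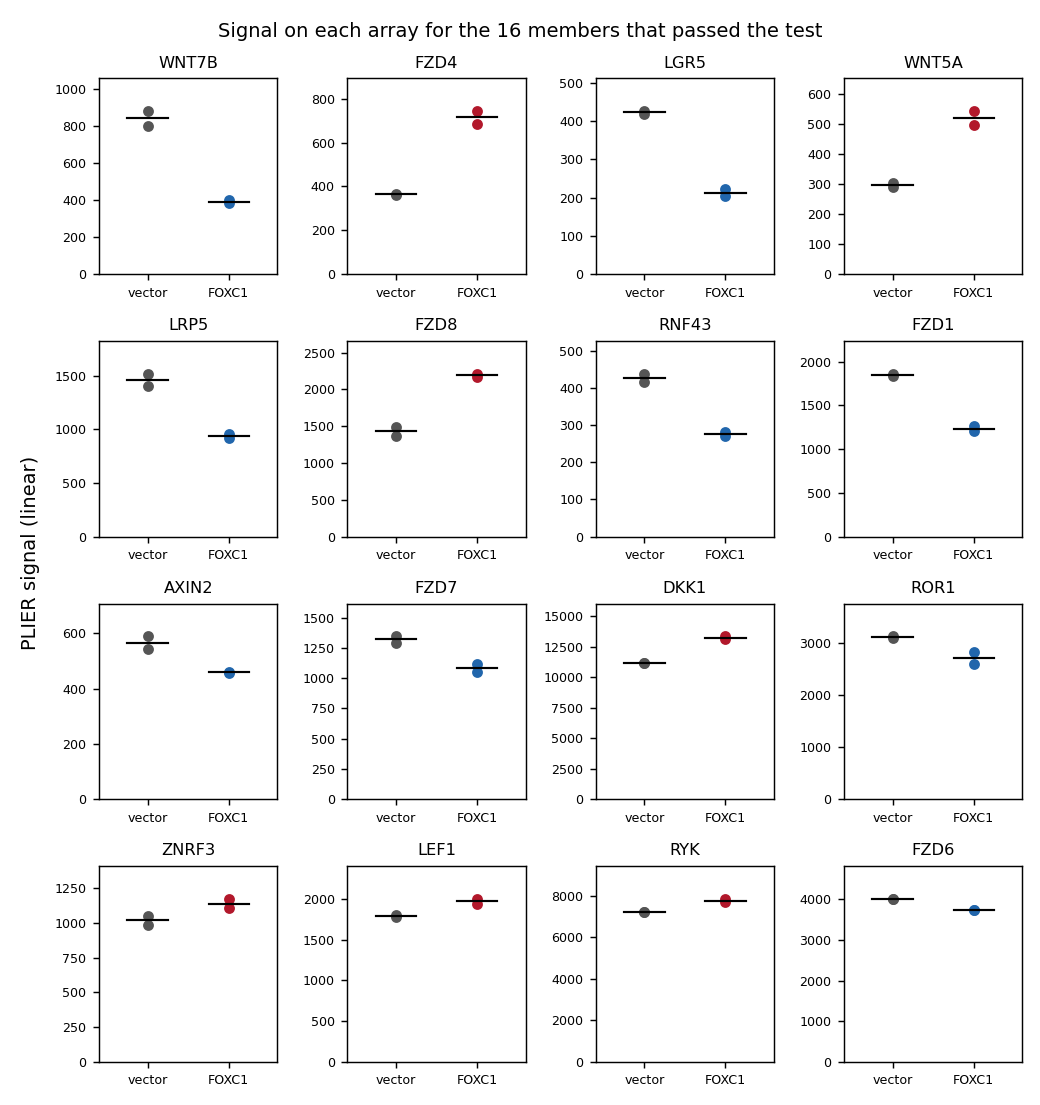
PLIER signal (linear axis from 0) on each of the 4 arrays for the 16 called members, ordered by size of change, with a point per array and a line at the mean of each group. In every panel the vector and FOXC1 points do not overlap, which was also so for 63.5% of all genes. The panels hold only members picked by the test on these same arrays. WNT7B, at 883 and 804 against 387 and 399, shows the largest fold.

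Of the 4 secreted inhibitors 1 passed (background 31.4%). DKK1, which binds LRP5 and LRP6 and blocks their pairing with Frizzled, gave 11134 and 11196 in vector and 13369 and 13144 in FOXC1 cells. It rose 1.19-fold, a small but tight change (log2 0.25 ± 0.022 SE, adjusted p = 1.16e-08). DKK3, a relative with a less settled role, read 1516 and 1414 against 1570 and 1623 (log2 0.12 ± 0.050 SE, adjusted p = 0.0682), and its dimmer second probe set did not pass (log2 0.15, adjusted p = 0.376). SFRP1, a decoy that binds Wnt, had 391 and 429 in vector and 423 and 490 in FOXC1 cells, with overlapping groups. WIF1, another Wnt-binding protein, was dim at 97.2 and 103 against 92.3 and 119. The estimates of all 4 inhibitors were above 0, with a median log2 change of 0.14, and only that of DKK1 passed; over the alternative settings WIF1 ran from -0.10 to 0.22 and so had no settled direction.

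Among targets and nuclear factors 4 of 9 passed, RNF43 and AXIN2 lower and ZNRF3 and LEF1 higher (background 31.4%), and the median log2 change was -0.00055. RNF43 and ZNRF3 are related membrane ubiquitin ligases that remove Frizzled from the cell surface, and R-spondins act through them. RNF43 had 416 and 439 in vector and 272 and 283 in FOXC1 cells, a fall of 1.51-fold (log2 -0.59 ± 0.085 SE, adjusted p = 1.07e-05). ZNRF3 went the other way, by less, from 1050 and 986 to 1105 and 1173 (log2 0.16 ± 0.058 SE, adjusted p = 0.0397). The pair therefore had estimates of opposite sign, though the call of ZNRF3 was lost in 6 of 16 alternative settings, among them without vector replicate 1, without vector replicate 2 and without FOXC1 replicate 2 (adjusted p from 0.0125 to 0.376).

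AXIN2 is a scaffold protein of the beta-catenin destruction complex and a widely used readout of canonical signalling. Its signals were 589 and 543 in vector and 456 and 461 in FOXC1 cells. It fell 1.23-fold (log2 -0.29 ± 0.075 SE, adjusted p = 0.00453). Leaving out vector replicate 1 ended its call (adjusted p from 0.000199 to 0.122 over the alternatives). The 20 measured genes nearest to AXIN2 on its chromosome, 10 on each side, had a median log2 change of -0.066, below the 5th percentile of that measure over all genes (-0.055), and their part in the fall was not tested. For the other called members this neighbour median lay between -0.019 and 0.071.

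LEF1, a nuclear partner of beta-catenin that is also its target, went from 1779 and 1801 to 2004 and 1943, a rise of 1.10-fold (adjusted p = 0.0188). Its call was lost in 6 of 16 alternatives, among them without vector replicate 1, without vector replicate 2 and without FOXC1 replicate 1 (adjusted p from 0.00466 to 0.220). The partners TCF7L2 and TCF7L1 did not pass. TCF7L2 read 2371 and 2418 against 2457 and 2303 (log2 -0.0090, 95% interval -0.10 to 0.08). SP5, a zinc finger factor switched on by canonical signals, had 1201 and 1131 in vector and 1112 and 1269 in FOXC1 cells (log2 0.028, 95% interval -0.10 to 0.16). NKD1 and NKD2, inhibitors that bind Dishevelled, overlapped between the groups as well, with log2 changes of 0.083 and -0.00055. Of the feedback targets in this role, AXIN2 and RNF43 fell, and NKD1, NKD2 and SP5 did not pass. ZNRF3 rose, with a call lost in 6 of 16 alternatives. Of the targets listed under other roles LGR5 fell and DKK1 rose, by 1.19-fold. The targets named here, LEF1 among them, thus did not all move in 1 direction. Whether they read out canonical signalling in these cells was not tested.

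RefSeq promoter sequences (GRCh38.p14) were at hand for 33 of the 48 members, with 42 start sites. They were searched on both strands for the letters of a TCF/LEF motif (CAAAG preceded by AA, AT, TA or TT) and of a forkhead motif (GTAAACA or GTAAATA), which do not overlap each other in the promoters printed here, in the 250 bases before and 50 after each start. TCF/LEF letters stood in 5 of the 42 windows (1 each of DKK1, SP5, WNT3, TCF7L2 and TCF7) and in 13.8% of all 35116 promoters. Forkhead letters stood in 2 of the 42 (WNT5B and TCF7) and in 5.97% of all. DKK1 and SP5 are printed because both hold more than 1 TCF/LEF match while DKK1 rose and SP5 did not pass, WNT5B because it is the single measured member with forkhead letters, and FZD4 because it rose most. The sequences run 5′ to 3′ on the gene's strand, cover the 250 bases before the start, and show matches in capitals. DKK1 lies at chr10:52314031-52314280 (plus strand), SP5 at chr2:170715087-170715336 (plus), WNT5B at chr12:1616806-1617055 (plus, the first of its starts in the table) and FZD4 at chr11:86955396-86955645 (minus).
DKK1: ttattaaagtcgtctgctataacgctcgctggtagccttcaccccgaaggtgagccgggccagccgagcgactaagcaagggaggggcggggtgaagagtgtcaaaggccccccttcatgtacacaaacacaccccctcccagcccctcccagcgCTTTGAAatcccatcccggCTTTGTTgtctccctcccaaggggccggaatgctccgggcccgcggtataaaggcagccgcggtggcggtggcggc
SP5: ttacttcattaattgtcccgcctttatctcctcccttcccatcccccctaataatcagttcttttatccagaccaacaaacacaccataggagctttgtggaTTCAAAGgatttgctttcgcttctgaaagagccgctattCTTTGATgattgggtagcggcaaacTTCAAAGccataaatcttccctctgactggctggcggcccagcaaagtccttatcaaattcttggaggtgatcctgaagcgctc
WNT5B: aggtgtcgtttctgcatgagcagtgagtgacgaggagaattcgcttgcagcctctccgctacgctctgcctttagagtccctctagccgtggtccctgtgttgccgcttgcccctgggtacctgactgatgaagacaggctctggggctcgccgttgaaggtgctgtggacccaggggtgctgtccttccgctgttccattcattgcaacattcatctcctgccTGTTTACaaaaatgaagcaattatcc
FZD4: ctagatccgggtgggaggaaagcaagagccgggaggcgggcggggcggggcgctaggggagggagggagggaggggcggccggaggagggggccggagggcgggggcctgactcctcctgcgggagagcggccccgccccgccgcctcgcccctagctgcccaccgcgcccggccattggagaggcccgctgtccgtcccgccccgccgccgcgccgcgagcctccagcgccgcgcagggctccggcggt
In DKK1 the matches begin at positions -95 and -76 from the start and both read on the opposite strand. In SP5 they begin at -148, -109 and -84. The forkhead letters of WNT5B begin at -26, on the opposite strand, and the FZD4 window held neither motif. A match is a description of the letters and no evidence of binding.

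Other genes of the pathway were followed in 7 lists with 148 genes, of which 142 were measured, and 49 passed, 13 higher and 36 lower (34.5%, against 31.4% of all genes). Above the 50th percentile of mean signal 10 rose and 31 fell of 89, beside 2484 and 2336 of all 9328 genes. Falls outnumbered rises among the nuclear cofactors (8 lower and 1 higher of 22), planar cell polarity genes (7 and 1 of 19) and the calcium branch (7 and 1 of 19). They also did so in ligand secretion (2 and 0 of 8) and the Dishevelled and destruction complex list (3 and 1 of 22). Over all genes 15.5% fell and 15.9% rose. Called genes named here beyond the 3 largest changes of a list were picked after their values were seen.

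Among nuclear cofactors, CTNNBIP1, a small protein that keeps beta-catenin from binding TCF factors, fell 1.82-fold, from 1409 and 1411 to 741 and 792 (adjusted p = 1.13e-10). TBL1X, a cofactor of beta-catenin and of corepressor complexes, fell 1.59-fold (mean 2554 ± 17.9 to 1603 ± 83.5; SD, n = 2). HBP1, a repressor of TCF-driven genes, fell 1.44-fold (mean 935 ± 32.0 to 644 ± 61.1; SD, n = 2). Thus cofactors known to restrain and to assist the pathway were both lower, and the single rise was that of the chromatin remodeller SMARCA4 (1.08-fold).

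In the planar cell polarity branch, which orients cells without beta-catenin, PRICKLE2 fell 1.88-fold, from 934 and 947 to 497 and 487, and PRICKLE1 fell 1.48-fold, from 1897 and 1874 to 1341 and 1202. The single rise in this list was in VANGL2, a membrane partner of the Prickle proteins, from 309 and 371 to 409 and 461 (adjusted p = 0.00738). Its call was kept in 11 of 15 alternatives and ended without vector replicate 1 and without FOXC1 replicate 2. In the calcium branch the kinase PRKCA fell 1.38-fold, the transcription factor NFATC2 1.28-fold and the calcineurin subunit PPP3CA 1.26-fold, while PPP3CB, a sister subunit, rose 1.08-fold.

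Ligand secretion and the core cytoplasmic machinery moved little. Of 8 secretion genes the Wnt carrier WLS (1.08-fold) and the retromer subunit VPS35 (1.05-fold) fell. Of 22 genes of Dishevelled and the destruction complex, GSK3A rose 1.08-fold and BTRC, TNKS2 and CSNK1D fell by 1.10-fold or less. Leaving out a single array ended 5 of these calls, and that of CSNK1D was not followed through the alternatives. WLS lost its call without vector replicate 1, GSK3A without vector replicate 2, VPS35 without either vector replicate or FOXC1 replicate 1, and BTRC and TNKS2 without either vector replicate or FOXC1 replicate 2. CTNNB1, which encodes beta-catenin itself, did not pass (log2 -0.031, 95% interval -0.08 to 0.01), and neither did APC or the 3 Dishevelled genes.

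Among 23 other secreted or membrane modulators 4 passed (17.4%, against 31.4% of all genes), NDP and TPBG lower and DKK2 and SFRP5 higher. Of the 23, 11 were dim, with both group means below the 25th percentile. NDP, which encodes norrin, the ligand that FZD4 shares with LRP5, fell 1.85-fold, from 336 and 327 to 168 and 175 (adjusted p = 1.98e-07). Within this trio the receptor FZD4 was therefore higher while the co-receptor LRP5 and the ligand NDP were lower. Their groups did not overlap, which was also so for 63.5% of all genes. Both FOXC1 arrays of NDP lay below the 25th percentile of 277. The Wnt inhibitors DKK2 (1.26-fold) and SFRP5 (1.16-fold) rose, and TPBG, a membrane inhibitor, fell 1.10-fold (log2 -0.14). The 20 measured genes nearest to TPBG had a median log2 change of -0.12, below the 5th percentile of -0.055, and their part was not tested. The call of TPBG was not followed through the alternatives. DKK2 was dim, at 212 and 196 in vector and 259 and 264 in FOXC1 cells, and leaving out vector replicate 2 ended its call (adjusted p from 0.00613 to 0.119), while SFRP5 kept its call in 12 of 16 alternatives and lost it without vector replicate 1 and without FOXC1 replicate 2.

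Genes reported elsewhere as beta-catenin targets went both ways, with 7 higher and 7 lower of 29 measured (48.3% called, against 31.4% of all genes). The vasoconstrictor peptide gene EDN1 rose 2.52-fold, from 2582 and 2677 to 6772 and 6553 (adjusted p = 1.02e-17). VEGFA, an angiogenic factor with many inputs, fell 3.20-fold, and the adhesion molecule L1CAM fell 1.99-fold, from 1643 and 1677 to 821 and 827 (adjusted p = 3.32e-12). CCND1, the cyclin D1 gene, did not pass (log2 -0.039, 95% interval -0.09 to 0.01). Many genes of this list respond to other pathways as well.

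**Figure D3:**
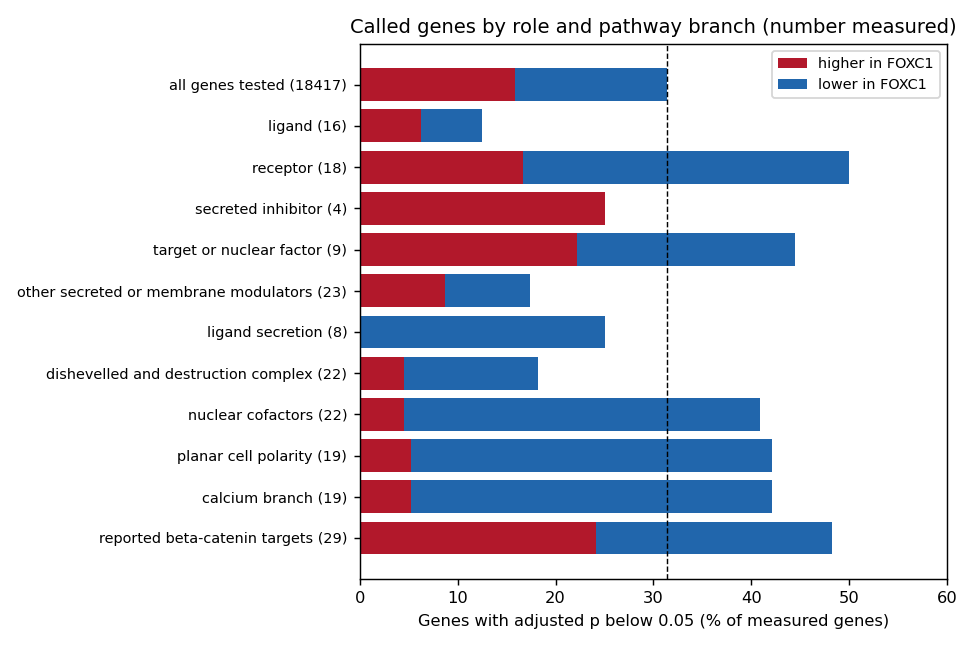
Percent of measured genes with a limma adjusted p below 0.05 in all genes, in the 4 roles and in the 7 other pathway lists, with the rise and fall stacked; the dashed line marks the 31.4% of all genes and the number measured stands in brackets. Receptors (9 of 18) lie above the line and ligands (2 of 16) below it. The line takes no account of signal, and brighter genes passed more often. The nuclear cofactor, polarity, calcium, secretion and destruction complex bars consist mostly of falls.

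The call held in all alternative settings that measured the gene for 10 of the 16 called members: WNT5A, WNT7B, FZD1, FZD4, FZD7, FZD8, LRP5, LGR5, DKK1 and RNF43. The fold of WNT7B ranged from 1.99 to 2.20 over them, that of FZD4 from 1.82 to 2.00, and that of LGR5 from 1.76 to 2.00. The remaining 6 were FZD6, ROR1, RYK, AXIN2, LEF1 and ZNRF3, with calls lost as given above.

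**Figure D4:**
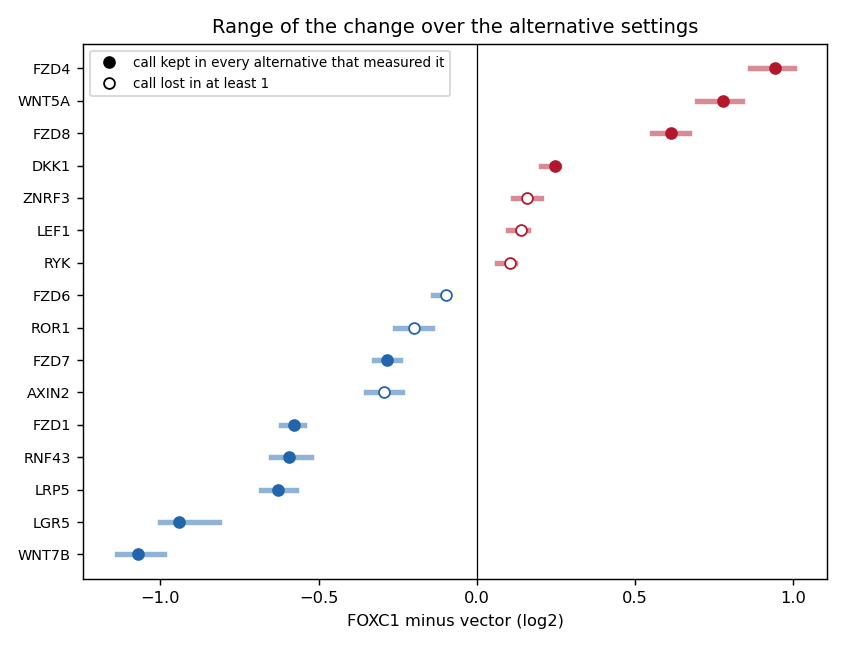
Log2 change of each of the 16 called members (point) with its range over the alternative settings (bar); filled points kept their call in every alternative that measured the gene and open points lost it in at least 1. All bars stay on 1 side of 0, and the open points belong to 6 members, among them AXIN2 at -0.29.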

How the data were processed

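Gene expression was measured on 4 arrays, 2 per group, grouped by the sample titles. Per the labels, the authors summarised probes with PLIER at gene level in Affymetrix Expression Console, and what they deposited is a linear intensity per probe set (PLIER signal). Normalization options, versions and scan batches were not stated in the sources used here. The number of arrays limits the precision, and p-values measure only the spread between arrays, which may be technical. That spread is largely borrowed. The fit drew the variance of each gene towards that of probe sets of similar signal (18.1 prior against 2 residual degrees of freedom).

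Of 33297 probe sets 19460 carried 1 symbol, 1754 several and 12083 none in the platform annotation. The 21214 with a symbol were fitted in limma 3.58.1 (R 4.3.3; lmFit, eBayes with a trend, two-sided) on log2(signal + 16), which shrinks folds of dim genes, and adjusted by Benjamini-Hochberg. Genes were represented by the brightest probe set with 1 symbol. The fit was also run on simulated data with independent noise and far fewer changed genes than passed here. That run therefore does not check the calls in these data. Signals are given per array, or as mean ± SD. The 95% intervals are not adjusted for the number of genes.

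The members and gene lists were chosen with earlier results of these data known. Array signals are given for called members and for up to 4 of the brightest per role, and up to 3 called genes per other list are named, largest change first. Added outside this rule, after values were seen, were the signals of WNT5B, LRP6 and ROR2, the genes TPBG, CSNK1D, SMARCA4 and PPP3CB, and, for their role, CTNNB1, CCND1, APC and the Dishevelled genes. As alternatives, the offset was set to 1 or 64, probe sets were limited to those above the 25th or the 50th percentile of mean signal, arrays were quantile normalized or centred on the median, variances were moderated without a trend or robustly, the replicate number entered as a block, each array was left out, and further fits used the mean of a gene's probe sets, all rows, or an adjusted p of 0.10. RefSeq promoters came from a table of GRCh38.p14.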

Additional observations from a re-analysis of the deposited data

How the results depend on the processing

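No called gene named above by the rule changed direction under the 16 alternatives, and 10 of 16 called members kept their call in each alternative that measured them. Of the 31 uncalled members 26 were not called in any; WNT3, WNT9A and DKK3 were called in some, SFRP1 without FOXC1 replicate 1, and ROR2 at an adjusted p of 0.10. With each array centred on its median, 4 members rose and 11 fell in place of 7 and 9, over all genes 1739 rose and 3396 fell in place of 2925 and 2852, and 7 other pathway genes rose in place of 13. Without a variance trend 4 members rose, 1461 genes rose and 1790 fell, and 6 other pathway genes rose. With a fit over all rows 1858 genes and 7 other pathway genes rose. Leaving out 1 array gave 5 to 8 members higher and 7 to 11 lower, 1913 to 2951 genes higher and 2059 to 3142 lower, and 7 to 13 other pathway genes higher and 24 to 37 lower. Of these, without vector replicate 2 1913 genes and 7 other pathway genes rose, and without vector replicate 1 8 other pathway genes rose. The cause was not tested. With the replicate number as a block 8 members rose and 11 fell; same-numbered arrays showed unrelated deviations from their group means (correlation -0.015), so the numbers were not taken to pair the samples. Arrays carry no read depth, and 5 members (WNT2, WNT2B, ROR2, LGR6 and WIF1) were dim in both groups, which limits what could be seen for them.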
